A study of Mus musculus with 6 samples.

Results

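The clustered histone genes of mouse are described here in 4T1 cells, a mouse mammary carcinoma line, with and without forced expression of METTL7A1, a methyltransferase-like protein. The genes were taken by name, as every row of the deposited count table whose symbol begins with Hist1h, Hist2h, Hist3h or Hist4h. This rule found 70 of the 48587 genes in the table, namely 6 H1, 20 H2A, 19 H2B (with the pseudogene Hist3h2bb-ps), 12 H3 and 13 H4 genes, and it used no measured value. The H2A genes Hist1h2aj and Hist1h2al, like Hist3h2bb-ps, have no annotated stop codon. In the METTL7A1 group the cells were stably transfected with the full-length Mettl7a1 cDNA in the pBICEP-CMV-2 vector, and in the mock group with the empty vector. Both groups were cultured in DMEM/F12 with 10% FBS and kept under 350 µg/ml G418, and each was sequenced as 3 biological replicates of ribosomal RNA-depleted total RNA. The transgene was driven by a CMV promoter, the sources do not say whether each line was a clone or a pool, and p-values here measure the spread between these replicates of a line.

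The labels were checked on the transgene first. Mettl7a1 had 6355, 11358 and 10398 counts in METTL7A1 replicates 1, 2 and 3 and 30, 30 and 29 counts in mock replicates 1, 2 and 3, a log2 fold change of 8.17 (SE 0.14, adjusted p = 4.9e-11, edgeR quasi-likelihood test). Libraries held 18386780 to 28459338 counts, of which the 70 histone genes took between 0.145% and 0.233%. Epithelial keratins and cadherin were abundant in every library (summed level of 7 epithelial markers between 1814 and 2377 cpm, counts scaled to the TMM-adjusted library total). Of 10 markers of immune, endothelial and stromal cells 8 were below the filter, with Cd3e at 0 and Ptprc, Cd79a, Lyz2 and Pdgfrb at no more than 8 counts in any library. The summed level of these 10 was 14.98 to 17.56 cpm in METTL7A1 cells and 6.83 to 8.01 in mock cells, mostly from Cd68 and Csf1r, and their part in the histone values was not tested.

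Replication-dependent histones supply the nucleosome core proteins H2A, H2B, H3 and H4 and the linker histone H1 while DNA is copied. Their mRNAs are made in S phase from genes without introns, packed in clusters that gather at the histone locus body. Most are not polyadenylated. They end just after a short stem-loop, which is bound by SLBP and cut with help of the U7 small nuclear ribonucleoprotein, and they are degraded quickly when DNA synthesis stops. In bulk RNA, fewer cells in S phase and less histone mRNA per cell cannot be told apart.

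The stem-loop is the sequence shared by these mRNAs that the naming rule did not use. A 16-base hairpin beginning with GG, with a perfectly paired stem of 6 bases and a 4-base loop beginning with TT, was found in an annotated transcript of 42 of the 70 genes and in 0.179% of 141689 transcripts of other genes. In 40 of the 42 it lay inside the exons on which the reads were counted. Where no hairpin was found, the annotated model often ended at the stop codon, so the absence is of these letters from the model. The 42 genes held 6 forms. The sequences that follow give an example of each form, plus Hist1h2bf, whose change is described with that of Hist1h3d, and H2afx, a histone variant gene outside the clusters. Sequences are read 5′ to 3′ in the mRNA sense from the GRCm38 transcripts with DNA letters, and capitals mark the hairpin.
Hist1h3d (chr13:23576239-23576264, plus strand): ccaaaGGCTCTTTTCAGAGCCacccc
Hist1h2bf (chr13:23573760-23573785, minus strand): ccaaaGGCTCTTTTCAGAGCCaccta
Hist1h3c (chr13:23745042-23745067, minus strand): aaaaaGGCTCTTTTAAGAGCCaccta
Hist2h2ac (chr3:96220413-96220438, minus strand): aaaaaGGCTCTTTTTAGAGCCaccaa
Hist4h4 (chr6:136803993-136804018, minus strand): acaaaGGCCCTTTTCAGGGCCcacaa
Hist2h4 (chr3:96262934-96262959, minus strand): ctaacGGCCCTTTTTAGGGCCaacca
Hist1h4j (chr13:21735432-21735457, plus strand): ctaaaGGTCCTTTTCAGGACCaccac
H2afx (chr9:44335235-44335260, plus strand): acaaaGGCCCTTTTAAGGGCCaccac

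The form of Hist1h3d and Hist1h2bf was the commonest, in 25 genes of the H1, H2A, H2B and H3 classes. Among the clustered genes, stems beginning GGCC were found in H4 genes only, as the form of Hist4h4 in 6 genes and that of Hist2h4 in 2, the other being Hist1h4i. The form of Hist1h4j also occurred in Hist1h4b, and the form of Hist1h3c in 6 genes in all. Of the 11 further histone genes listed as replication-independent, H2afx was the only gene with such a hairpin, in a form that no clustered gene had.

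The promoters also shared sequence by class. Promoter windows of equal length around the annotated start were found in RefSeq (GRCm38.p6) for 62 of the 70 genes, and 3 motifs, none of which contains another, were searched on both strands. TATAAA was present in 56.5% of the histone windows and in 13.6% of all 32851 windows. CCAAT was present in 85.5% against 37.4% of all windows. All 50 windows of H1, H2A, H2B and H3 genes held it, while 25% of the 12 H4 windows did. The octamer ATTTGCAT, the sequence read by the POU factor Oct1, was found in 38.9% of H2A and 37.5% of H2B windows, in no H1, H3 or H4 window and in 1.74% of all windows. These are matches of letters and not shown to be bound. Some H2A and H2B genes start near each other on opposite strands, and both strands were searched, so an octamer could be counted in both classes.

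Near-identical copies limited what could be counted for some genes. For each gene the share of its 31-base stretches that also occur in another gene was computed, with a median of 63.4% over the 57 genes that passed the filter of 1 cpm in at least 3 libraries. Of the 13 genes below the filter, 8 shared over 90% of their stretches, among them the paired copies Hist2h2aa1 and Hist2h2aa2, Hist1h2ao and Hist1h2ap, and Hist1h2bq and Hist1h2br, each with 0 to 12 counts per library. The sources used here do not say how reads with several placements were treated, so these low counts are no measure of the genes' activity. Hist2h3c1 was at 0 in every library and lies under the same-strand gene Gm20634. The other 4 genes below the filter shared little or less, from 0% to 44.1%, and were at 0 to 13 counts. These were Hist1h1a and the testis genes Hist1h1t, Hist1h2aa and Hist1h2ba. Among tested genes the pair Hist1h3h and Hist1h3i shared 85.3% of their stretches, so their counts could trade reads.

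**Figure D1:**
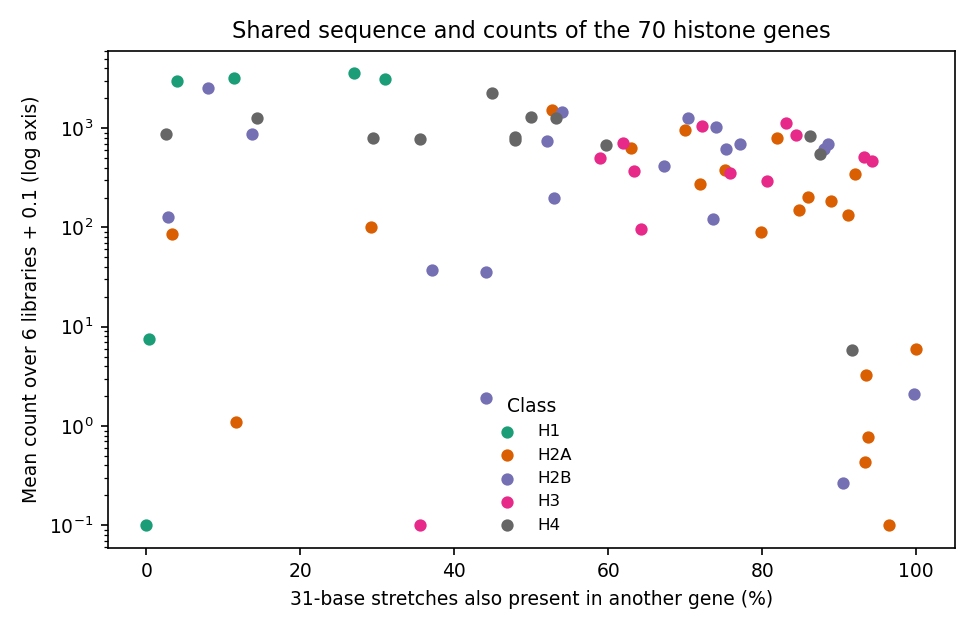
Each point is a histone gene, coloured by class, with the percentage of its 31-base stretches that also occur in another gene on the horizontal axis and its mean count over the 6 libraries plus 0.1 on a log vertical axis. Below 10 counts lie 8 genes at over 90% shared sequence and 5 genes with less.

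H1 and H4 transcripts contributed most to the sum, at nearly equal shares. In mock cells H1 genes made up 25.7% of the summed histone level, H4 genes 25.5%, H2B genes 23.5%, H3 genes 13.1% and H2A genes 12.3%. H4 was above H1 in mock replicates 1 and 2 and below it in mock replicate 3. These are shares of counts without correction for exon length, so they do not rank the classes by number of transcripts. Reads with several placements could also shift them. The median of shared stretches among tested genes was lowest for H1 (19.2%) and highest for H2A (77.4%). The Hist1 cluster on chromosome 13 supplied 85.6% of the sum, the Hist2 cluster on chromosome 3 supplied 11.4%, and Hist4h4 on chromosome 6, which stands alone, 2.72%. Per kilobase of counted exon, the highest mock levels were those of Hist2h2bb (294 ± 35.4 cpm per kb, SD, n = 3), Hist1h4d (259 ± 31.8), Hist1h1e (203 ± 18.4), Hist1h1d (191 ± 19.2) and Hist1h1b (175 ± 12.6). Hist2h2bb and Hist1h4d differed by less than the sum of their SDs, as did each of the following neighbours in this order except Hist1h4d and Hist1h1e. The order depends on the annotated exon length. Hist1h1c was at 149.6 cpm in mock, near the 152.1 of Hist1h1e, but at 95.9 cpm per kb. Its exon of 1560 bases holds 840 bases past the hairpin. Some reads of Hist2h2bb could come from Gm42743, which lies on the same strand.

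A library stood apart in the histone genes before any group comparison. The summed level of the 70 genes was 1434, 2042 and 2242 scaled cpm in METTL7A1 replicates 1, 2 and 3 and 2339, 2412 and 1960 in mock replicates 1, 2 and 3. METTL7A1 replicate 1 was the lowest library, METTL7A1 replicate 3 lay above mock replicate 3, and the groups overlapped. Of the 57 tested genes 52 had their lowest level in METTL7A1 replicate 1, and 29 had their highest in mock replicate 2. The median deviation of the tested genes from the mock mean, on the log2 scale, was −0.71, −0.14 and −0.056 in METTL7A1 replicates 1, 2 and 3 and 0.057, 0.12 and −0.19 in mock replicates 1, 2 and 3. AY036118, a gene that overlaps the ribosomal RNA repeat, was also lowest in METTL7A1 replicate 1. Its level was 4974, 24800 and 44840 cpm in METTL7A1 and 145700, 52030 and 8952 in mock, so that within each group the library lowest in AY036118 was the lowest in histone mRNA too. The nuclear RNA Malat1 ran the other way, at 23540, 18150 and 16040 cpm in METTL7A1 and 9260, 8286 and 13120 in mock, highest within each group in the library lowest in histone mRNA (log2 fold change 0.91, adjusted p = 0.0053). Gm42418, a further gene at the ribosomal repeat, and Rmrp, the RNA of RNase MRP, were lower in METTL7A1 (−1.03 and −0.47, adjusted p = 0.011 and 0.013). The part of these RNAs in the histone values was not tested.

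**Figure D2:**
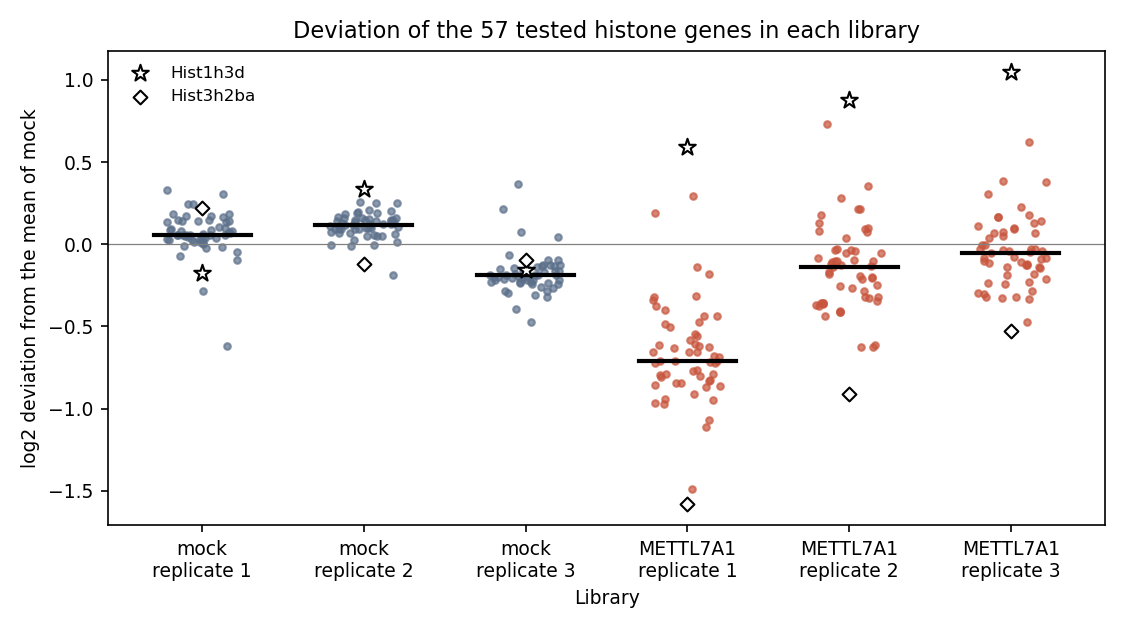
The vertical axis gives, for each of the 57 tested histone genes, the log2 difference between its level in a library and its mean over the 3 mock libraries, and the thick lines are the medians. The median of METTL7A1 replicate 1 is −0.71, the other 5 medians lie between −0.19 and 0.12, and Hist1h3d (star) is above 0.5 in all METTL7A1 libraries while Hist3h2ba (diamond) is below −0.5 in them.

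The summed histone level was 1906 ± 421 cpm in METTL7A1 cells and 2237 ± 243 in mock cells (SD, n = 3), a log2 ratio of −0.23 that was smaller than the spread between libraries. It was −0.051 without METTL7A1 replicate 1, and −0.007 without that library and mock replicate 1, the libraries lowest and highest in AY036118. METTL7A1 replicate 1 was also the lowest library in the histone sum, while the lowest mock library, replicate 3, was kept. The smaller ratio thus follows in part from the choice of libraries, which was made after the data were seen. By class the log2 ratios were −0.14 for H1, −0.29 for H2A, −0.23 for H2B, −0.25 for H3 and −0.29 for H4, and the groups overlapped in each. Without METTL7A1 replicate 1 they were 0.026 for H1, −0.10 for H2A, −0.033 for H2B, −0.066 for H3 and −0.12 for H4. The sums combine copies that share reads and carry no test.

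**Figure D3:**
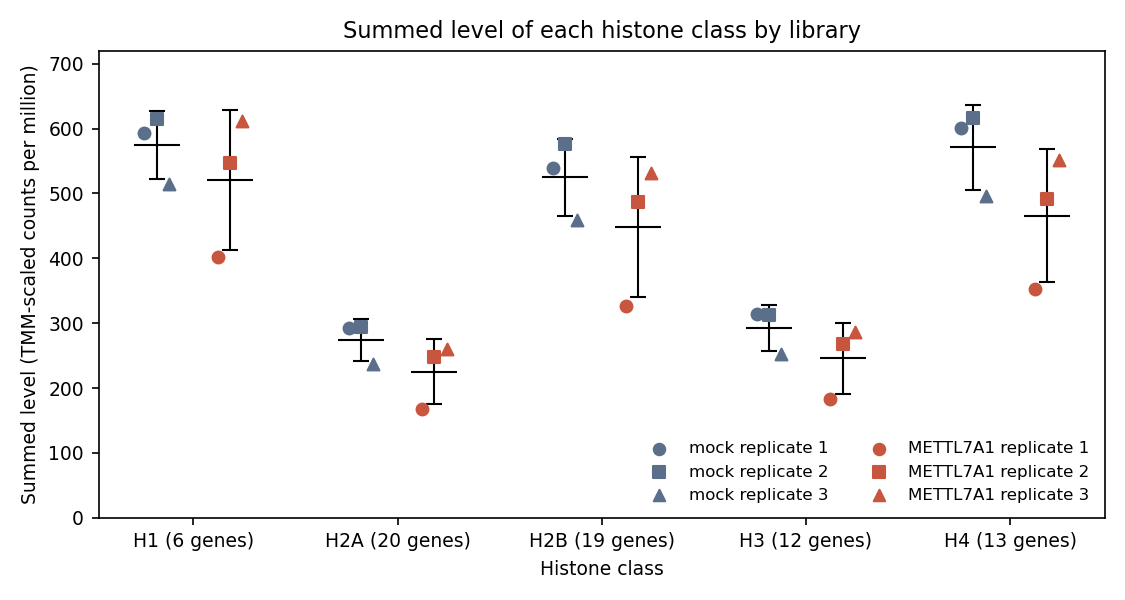
Summed level of each histone class in scaled cpm, with a symbol for each library and bars for the mean ± SD of the 3 libraries of a group. METTL7A1 replicate 1 (red circles) is lowest in every class, at 401 for H1 against 515 to 614 in mock, and the groups overlap.

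Gene by gene, 16 of the 57 tested histone genes passed an adjusted p of 0.05 in edgeR's quasi-likelihood test, 15 lower and 1 higher in METTL7A1 cells. Over all 13166 tested genes 42.1% passed, 21% lower and 21.1% higher. In this fit histone genes thus passed at a smaller share (28.1%) than genes at large. By direction, the 15 lower calls among 57 were a larger share than the 21% of all genes, and the 1 higher call a smaller one. The order was reversed in some fits, as without METTL7A1 replicate 3, where 26 histone genes passed against 35.2% of all genes. Fold changes of the histone genes were mostly negative, with 47 of 57 (82.5%) below 0 and a median log2 fold change of −0.27. Of all tested genes 52.9% were below 0, with a median of −0.026. At the study's thresholds, an adjusted p under 0.01 with a log2 fold change beyond 1.5, no histone gene passed, against 2.48% of all genes. The levels of 11 tested histone genes lay below mock in all METTL7A1 libraries and 1 lay above, against 25.6% and 25.9% of all genes. The median of the histone genes was −0.093 without METTL7A1 replicate 1 and −0.057 without the libraries lowest and highest in AY036118, with 40 and 34 of 57 genes below 0. The number of genes that passed was 10 and 2 in these fits, in which 41.7% and 32.2% of all genes passed. Leaving out METTL7A1 replicate 2 or 3 gave 10 and 26, against 29.1% and 35.2% of all genes. Leaving out mock replicate 1, 2 or 3 gave 3, 6 and 22, against 32.7%, 35.3% and 44.5%. Of the 15 lower genes Hist1h2bf and Hist1h2bl kept their call without mock replicate 1, and Hist1h2bf without the libraries lowest and highest in AY036118.

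**Figure D4:**
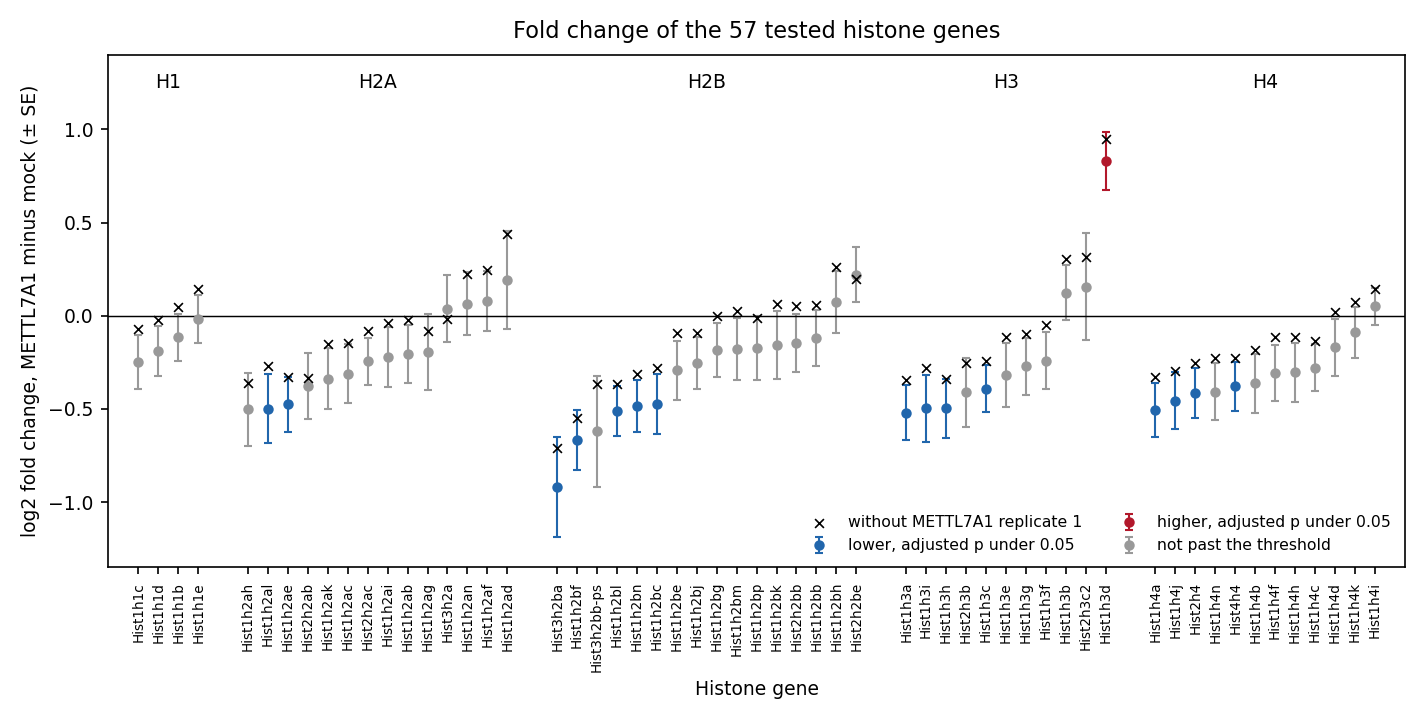
Log2 fold changes (METTL7A1 minus mock) of the 57 tested histone genes with standard errors, ordered within each class and coloured by the edgeR test at an adjusted p of 0.05, and crosses for the fit without METTL7A1 replicate 1. The values run from −0.92 for Hist3h2ba to 0.83 for Hist1h3d, and most crosses lie nearer to 0 or above it.

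Among H3 genes 4 of 11 tested genes were lower and 1 was higher, with a median log2 fold change of −0.32. Hist1h3d encodes a replication-dependent H3 and lies at chr13:23575763-23576322 on the plus strand. It was at 16.6, 20.3 and 22.7 cpm in METTL7A1 replicates 1, 2 and 3 and at 9.73, 13.9 and 9.86 in mock replicates 1, 2 and 3. Every METTL7A1 library was above every mock library, including METTL7A1 replicate 1, in which nearly all other histone genes were lowest. Hist1h3d rose by 0.83 on the log2 scale (SE 0.15, adjusted p = 0.0014), and its value was between 0.73 and 1.02 in all 17 other fits, with adjusted p from 1.9e-11 to 0.0095. It had 178 to 598 counts per library, 63.4% of its 31-base stretches occur in other genes, most of them in Hist1h3b, and no gene in the table overlaps it.

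Hist1h3b itself did not pass, at 22.7, 32.7 and 36.7 cpm in METTL7A1 and 28.3, 31.2 and 25.6 in mock (log2 fold change 0.12, adjusted p = 0.54). Without METTL7A1 replicate 1 it was the other histone gene past the threshold in the higher direction (0.30, adjusted p = 0.023). The 4 H3 genes that fell were Hist1h3a, Hist1h3c, Hist1h3h and Hist1h3i. Hist1h3a was at 12.8, 19.5 and 19.9 cpm in METTL7A1 and 25.8, 27.6 and 22.14 in mock, with no overlap between groups (−0.52, SE 0.15, adjusted p = 0.016). Hist1h3c fell by 0.39 (adjusted p = 0.028), and the near-identical Hist1h3h and Hist1h3i both fell by 0.50 (adjusted p = 0.025 and 0.045). Of these 4, Hist1h3a kept its call without METTL7A1 replicate 1 and the other 3 did not.

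**Figure D5:**
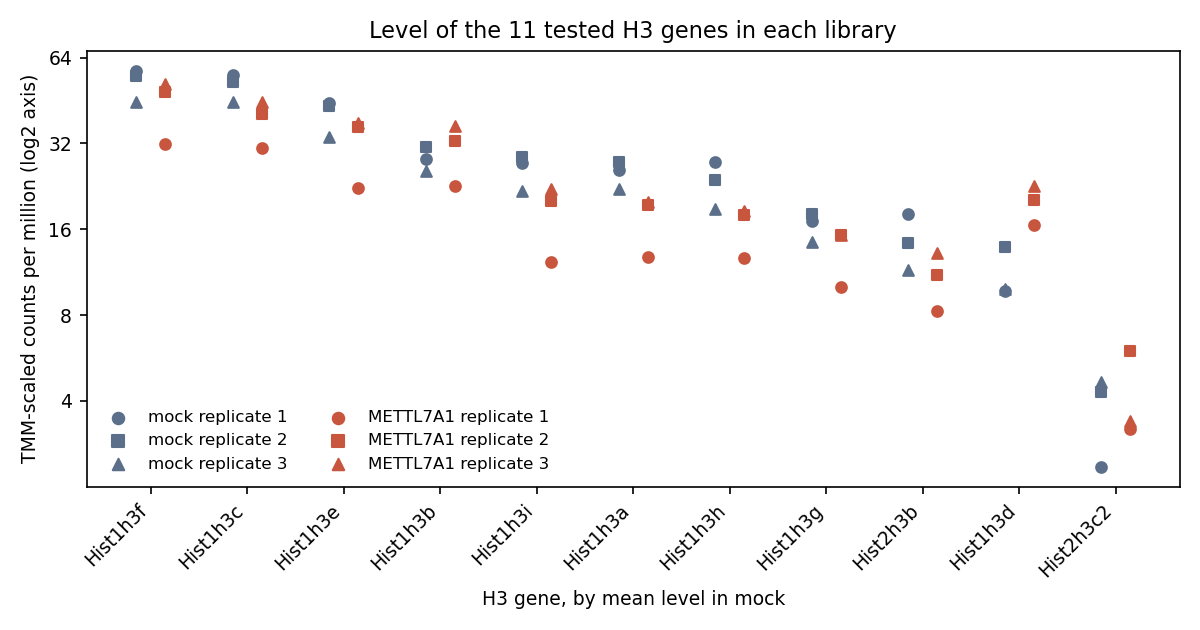
Levels of the 11 tested H3 genes in each library in scaled cpm on a log2 axis, ordered by mean level in mock. Hist1h3d is the gene whose METTL7A1 libraries (16.6 to 22.7) all lie above its mock libraries (9.73 to 13.9), while Hist1h3a and Hist1h3h show the reverse.

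H2B genes had 5 of 16 tested genes lower, none higher and a median of −0.22. Hist1h2bf was at 3.34, 4.16 and 4.62 cpm in METTL7A1 and 6.01, 7.18 and 6.16 in mock. The groups did not overlap, and METTL7A1 replicates 2 and 3 also lay well below mock. It fell by 0.67 (SE 0.16, adjusted p = 0.0068) and ranged from −0.77 to −0.51 in the 17 other fits, all with an adjusted p of at most 0.038. Hist1h2bf and Hist1h3d lie 1566 bases apart on opposite strands, with Hist1h2ad between them (0.19, adjusted p = 0.59), and carry the same hairpin, while their levels moved in opposite directions.

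Hist3h2ba on chromosome 11 had the lowest fold change of the 57 genes, −0.92 (SE 0.27, adjusted p = 0.018), at 13, 33 and 36 counts in METTL7A1 and 45, 47 and 49 in mock. The groups did not overlap, yet with these few counts the call was lost in 4 of 17 fits, without METTL7A1 replicate 1 or 2, without mock replicate 1, and without the libraries lowest and highest in AY036118 (adjusted p up to 0.15). Hist1h2bl (19.2, 26.1 and 27.7 cpm in METTL7A1, 36.1, 38.7 and 29.99 in mock) fell by 0.51 (adjusted p = 0.0099). Hist1h2bn fell by 0.48 (adjusted p = 0.017) and Hist1h2bc by 0.47 (adjusted p = 0.033), each with groups apart. Hist1h2bl and Hist1h2bn share over 88% of their stretches with other genes, mostly with Hist1h2bq and Hist1h2bk, respectively.

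Among H2A genes 2 of 14 tested genes were lower and none was higher, with a median of −0.23. Hist1h2ae was at 10.6, 13.9 and 15.98 cpm in METTL7A1 and 20.7, 20.1 and 16.06 in mock, where METTL7A1 replicate 3 nearly reached mock replicate 3 (−0.48, SE 0.15, adjusted p = 0.023). Hist1h2al was at 18.3, 33.4 and 32.03 in METTL7A1 and 44.9, 41.0 and 33.7 in mock, again with adjoining ranges (−0.50, SE 0.18, adjusted p = 0.049). Its call was lost in 11 of 17 fits, 81.9% of its stretches occur elsewhere, and it has no annotated stop codon. Hist1h2al is the chromosome 13 gene that lies far from the Hist1 cluster, at chr13:51202688-51203065. The 40 nearest tested genes above a log2 cpm of 2 that are not histones had a median of −0.36. Hist3h2a, whose level was 3.45 to 4.04 in METTL7A1 and 2.90 to 4.11 in mock, was among the 3 genes with the smallest change (0.038, adjusted p = 0.89).

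H4 genes had 4 of 12 tested genes lower and a median of −0.33. Hist1h4a was at 20.96, 31.8 and 32.2 cpm in METTL7A1 and 43.4, 43.1 and 35.1 in mock, with groups apart. It fell by 0.51 (SE 0.15, adjusted p = 0.016). Hist2h4, from the cluster on chromosome 3, was at 24.5, 35.2 and 36.5 in METTL7A1 and 44.0, 46.7 and 38.3 in mock, and fell by 0.41 (SE 0.13, adjusted p = 0.027). Its exons share 2.56% of stretches with other genes, so few of its reads could come from a copy. Hist1h4j fell by 0.46 (adjusted p = 0.033) and the lone Hist4h4 by 0.38 (adjusted p = 0.038), both with overlapping groups. Hist1h4i, which has the same hairpin as Hist2h4, was at 29.9 to 37.0 in METTL7A1 and 29.4 to 35.3 in mock (0.050, adjusted p = 0.72).

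None of the 4 tested H1 genes passed, and their median was −0.15. These linker histone genes took the most counts of the clustered genes, and at most 31% of their stretches occur in other genes. Hist1h1e was at 117, 162 and 171 cpm in METTL7A1 and 158, 162 and 137 in mock, the smallest change of all tested histone genes (−0.017, SE 0.13, adjusted p = 0.93). Hist1h1b, Hist1h1d and Hist1h1c had log2 fold changes of −0.12, −0.19 and −0.25 with adjusted p of 0.49, 0.29 and 0.20. In each of the 4 METTL7A1 replicate 1 was the lowest library.

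The histone genes were also compared by shared sequence, hairpin and position. Of the 18 tested genes with under 50% shared stretches 5 passed (27.8%), all lower, with a median of −0.26. Of the 39 others 11 passed (28.2%), with a median of −0.27. The percentage was taken over all annotated exon bases, so this split is partly one by length. Its median was 28.2% in tested genes with at least 700 exon bases and 72.1% in shorter ones. The 37 tested genes with an annotated hairpin had 8 lower and 1 higher (24.3%) and a median of −0.24. The 20 without had 7 lower (35%) and a median of −0.40. These groups also differ in shared stretches, with medians of 59.7% and 81.2%, and models without a hairpin often ended at the stop codon. Along chromosome 13, the 18 tested genes of the group at chr13:21715763-22043676 had 5 lower (27.8%) and a median of −0.24. The 27 of the group at chr13:23531050-23934851 had 6 lower and 1 higher (25.9%) and a median of −0.27. Over all tested genes 42.1% passed. The genes that are not histones within 1 Mb of the Hist1 cluster had a median of −0.05, with 1 of 14 lower and 2 higher. The 40 nearest tested genes, taken from a wider stretch, had a median of −0.11 for the 24 histone genes of the first group and −0.16 for the 31 of the second, and with the neighbours' median as an offset the median of the 57 histone genes was −0.135 and 5 passed, against 31.5% of all genes. Within 1 Mb of the Hist2 cluster the median was −0.04 over 38 genes, of the Hist3 genes −0.17 over 27 and of Hist4h4 −0.08 over 7. All these neighbours were limited to tested genes above a log2 cpm of 2.

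Genes that make and process histone mRNA were read from the same fit. Of 27 such genes, all tested, 10 fell and 3 rose, with a median of −0.12. Slbp, which binds the stem-loop, was at 86.4, 84.3 and 88.1 cpm in METTL7A1 and 98.3, 101 and 82.8 in mock and did not pass (−0.12, adjusted p = 0.26). Npat, the histone locus body factor that activates histone transcription, did not pass either (0.011, adjusted p = 0.91). Casp8ap2, the FLASH protein of the U7 pathway, was at 87.6, 87.4 and 83.4 in METTL7A1 and 91.8, 92.2 and 91.1 in mock, a small difference that did not pass although the groups did not overlap (−0.091, adjusted p = 0.27). Cpsf3, the endonuclease that cuts histone pre-mRNA, was at 47.7, 51.6 and 52.4 in METTL7A1 and 84.7, 93.4 and 81.8 in mock and fell by 0.77 (SE 0.08, adjusted p = 1.9e-05). Its partners Cpsf2 and Sympk fell by 0.46 and 0.43 (adjusted p = 0.00064 and 0.00094). Ccne2, a cyclin partner of CDK2, fell by 0.74 (adjusted p = 2.6e-05), and Zcchc6, a uridylyltransferase that tags histone mRNA for decay, by 0.60 (adjusted p = 7.1e-05). The 3 genes that rose were the other E cyclin gene Ccne1, by 0.51 (adjusted p = 0.014), Snrpd3, which codes for an Sm core protein, by 0.37 (adjusted p = 0.0016), and Cdk2 by 0.31 (adjusted p = 0.011). In the 5 named genes that fell METTL7A1 replicate 1 did not stand apart, and the summed level of the 27 genes was 1786, 1798 and 1821 in METTL7A1 and 2075, 2136 and 1952 in mock.

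S-phase genes, which code for replication enzymes, fell in 10 and rose in 2 of 26 cases, with a median of −0.14. Of all tested genes 21% passed lower and 21.1% higher. Rrm2, a subunit of ribonucleotide reductase, fell by 0.61 (adjusted p = 0.00012), the origin licensing factor Cdc6 by 0.43 (adjusted p = 0.00047) and the helicase subunits Mcm5 and Mcm2 by 0.50 and 0.38 (adjusted p = 0.00067 and 0.0054). Cdt1 fell by 0.34 (adjusted p = 0.0061). The 2 genes that rose were Pola1, by 0.37 (adjusted p = 0.0078), and Gins1, by 0.30 (adjusted p = 0.037). The summed level was 2797, 2828 and 2818 cpm in METTL7A1 and 3233, 3241 and 2915 in mock. These sums did not overlap. In the S-phase sum METTL7A1 replicate 1 was level with replicates 2 and 3, unlike in the histone sum, where it was the lowest by far. Single genes were not level. In METTL7A1 replicates 1, 2 and 3 Mcm2 was at 100.7, 109.3 and 116.7 cpm, and Pola1 at 297.4, 259.9 and 252.9. The level sum thus combines genes that differed in opposite directions in replicate 1. The share that passed was 46.2%, against 42.1% of all genes. Without mock replicate 1 or 2, 6 passed, where 32.7% and 35.3% of all genes did.

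Histone genes outside the clusters, listed as replication-independent although H2afx carries the hairpin, moved in both directions. Of 11 genes 9 were tested, and 2 rose and 2 fell. H1f0, the linker histone of resting cells, was at 159, 199 and 206 cpm in METTL7A1 and 96.4, 104 and 86.5 in mock and rose by 0.98 (SE 0.11, adjusted p = 3.9e-05). H2afv rose by 0.55 (adjusted p = 0.0063) and H2afy, which codes for macroH2A1, fell by 0.52 (adjusted p = 8e-05). H2afx, the variant that is phosphorylated at DNA breaks, was at 62.0, 83.2 and 95.2 in METTL7A1 and 113, 117 and 91.5 in mock. It fell by 0.42 (SE 0.14, adjusted p = 0.032), with overlapping groups, and like the histone sum it was lowest in METTL7A1 replicate 1 and highest in mock replicate 2. H2afz (−0.20, adjusted p = 0.094), H3f3a (−0.23, adjusted p = 0.054) and H2afy, in which no hairpin was found, had the same lowest and highest libraries. The other tested genes of this list, H3f3b, H2afv, H2afj, H1f0 and Cenpa, did not.

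Histone chaperones had 4 genes up and 4 down among 16, with a median of 0.04. Supt16, a subunit of the FACT complex, and Asf1a, which hands H3 and H4 to the assembly factors, both fell by 0.56 (adjusted p = 0.00011 and 0.00034), and Nap1l4 by 0.32 (adjusted p = 0.0036). Nap1l1, which carries H2A and H2B, rose by 0.33 (adjusted p = 0.0052) and Ubn1, of the HIRA complex, by 0.28 (adjusted p = 0.0086). Without METTL7A1 replicate 2 or mock replicate 2, 5 chaperone genes passed, where 29.1% and 35.3% of all genes did. The counts that passed in these lists, 13 of 27, 12 of 26, 4 of 9 and 8 of 16, are to be read against the 42.1% of all genes. Of all genes 21% were lower and 21.1% higher.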

How the data were processed

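Per the labels and the methods, the authors trimmed stranded total RNA reads with BBDuk, aligned them to mm10 with STAR 2.5.3a and assigned them to Ensembl GRCm38.97 genes with featureCounts. The deposited values are raw counts per gene. Counting by strand and treatment of multiply placed reads are not given in the sources used here. Genes with at least 1 cpm in at least 3 libraries were fitted with edgeR 4.0.16 (quasi-likelihood test, TMM scaling, Benjamini-Hochberg adjustment over 13166 genes, R 4.3.3). Levels are cpm of TMM-scaled libraries. Sequences came from GENCODE M21 transcripts and RefSeq promoter windows. A gene was called at an adjusted p under 0.05. The genes and lists were chosen with earlier results of these data known. Named genes are every called histone gene, the 5 highest per kilobase, the 3 with the smallest change, up to 5 called genes per list by p, and Slbp, Npat and Casp8ap2. Hist1h3b, Hist1h2ad, Hist1h1c, H2afz, H3f3a, Ccne1, Snrpd3, Cdk2, Malat1, Gm42418 and Rmrp with their values, and the genes below the filter, were added after values were seen. So were Pola1, Gins1, H3f3b, H2afj and Cenpa. Data were simulated for METTL7A1 against mock over 13166 genes, with 66, 67 and 67 genes changed by 0.5, 1 and 2 on the log2 scale. The test recovered 59.1%, 88.1% and 100% of these, and 16 of the 181 genes it called were unchanged ones. Genes varied independently in the simulation, and far fewer were changed than the 42.1% called in the data. These rates therefore need not hold for the data and do not cover a shift shared by many genes of a library. Alternatives were other scalings and filters, DESeq2 1.42.0, limma 3.58.1 voom, a replicate block, an AY036118 covariate centred within each group, an offset for chromosomal neighbours and leaving out libraries.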

Additional observations from a re-analysis of the deposited data

How the results depend on the processing

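The number of histone genes past an adjusted p of 0.05, 16 of 57, depended on the libraries and the model. It was 10 with the replicate block and 5 with the neighbour offset (4 lower), where 36.5% and 31.5% of all genes passed. With AY036118 as a covariate it was 34 (33 lower), against 51.5% of all genes. That covariate was centred within each group, so it did not adjust for the difference in AY036118 between groups. Without the abundance filter the number was 26 of 67 (24 lower, 2 higher), against 20.9% of all genes. It was 14 to 17 with other scalings, DESeq2 or voom. Without the libraries highest and lowest in AY036118, a fit added after the data were seen, it was 2 (1 lower). Leaving out 1 library gave 3 (without mock replicate 1) to 26 (without METTL7A1 replicate 3), with 2 to 25 lower and 1 to 2 higher, and it was 10 (8 lower, 2 higher) without METTL7A1 replicate 1 and 6 without mock replicate 2. With the block 9 were lower. Of the 18 tested genes with under 50% shared stretches, a subset also added later, 5 passed and 0 were higher. Among all genes the share that passed was between 20.9% and 51.5% in these fits. Hist1h3d and Hist1h2bf passed in all 17 fits on the genes, and none of the 16 called genes changed direction. The median stayed below 0, from −0.41 to −0.057, and no histone gene passed the study's thresholds in any fit.

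The summed histone level had a log2 ratio of −0.36 to −0.051 when 1 library was left out, −0.17 with plain library totals and −0.007 without the AY036118 extremes. The H1 sum ran from −0.27 to 0.026 when 1 library was left out, changing sign without METTL7A1 replicate 1, and was 0.061 without the extremes. The counts of the lists of S-phase genes and chaperones were 6 to 12 and 5 to 9 when 1 library was left out. In these fits 29.1% to 44.5% of all genes passed. The cause of none of these shifts was tested. Replicate numbers did not pair the libraries, with correlations of deviations of −0.15, 0.20 and −0.37, so the block shows no weaker effect. Counts under 50 per library, as in Hist3h2ba, and shared sequence limit the values of single genes.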
